A study of Mus musculus with 10 samples.

Results

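The genes described here carry out or control the uptake, storage and export of iron. They were chosen by name (Tfrc, Steap3, Fth1, Ftl1, Ncoa4, Slc40a1, Hmox1, Ireb2 and Aco1), all 9 were present among the 10141 genes of the expression table, and all 9 passed the filter on low values that left 8079 genes to test. By RNA sequencing, GFP+ leukaemia cells were compared with CD11b+ myeloid cells that lacked GFP, both from mouse bone marrow, with 5 libraries in each group. The leukaemia cells carried the fusion gene MLL-AF9, which joins MLL, a methyltransferase of histones, to AF9 and causes acute myeloid leukaemia, together with the GFP reporter. Frozen cells were given by tail vein to CD45.1 recipients, and marrow was taken once 2% of the blood was GFP+. The myeloid cells came from those leukaemic recipients, so both groups came from diseased marrow, and they were chosen on CD11b, a surface integrin of mature myeloid cells. One protocol text has both populations sorted by flow cytometry, while the design text has the CD11b+ cells, negative for CD45.2, isolated with magnets. The genotype field gives MLL-AF9/GFP and the cell type field reads as leukaemia for every library, and group membership was read from the titles. The sources used here do not give the age or sex of the mice, how many leukaemia clones were used, or whether the libraries came from separate mice, so p-values measure only the spread between these libraries. No normal immature cells were compared, so being leukaemic and being less mature cannot be told apart.

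Cells take up iron bound to transferrin through the transferrin receptor (Tfrc), reduce it in the endosome with Steap3, store it in ferritin made of heavy (Fth1) and light (Ftl1) chains, and release it from the cell through ferroportin (Slc40a1). Ncoa4 carries ferritin to the lysosome for breakdown, and Hmox1 frees iron from haem. When iron is scarce, the iron regulatory proteins Aco1 and Ireb2 bind a hairpin called the iron-responsive element: in the 3′ untranslated region of Tfrc this protects the mRNA, and in the 5′ untranslated region of ferritin or ferroportin mRNA it blocks translation. In bone marrow, macrophages recycle iron from old red cells and release it through ferroportin, and dividing immature cells are known for high transferrin receptor levels.

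The hairpins are shown because they are the sequence feature that joins 4 of the 9 genes. Every annotated protein-coding transcript of the 9 genes was searched (GENCODE M21, build GRCm38, transcript strand only). The pattern was a C, then 5 bases, the loop CAGTGN and 5 bases that pair with the first 5 (Watson-Crick or G-U). The search found 4 sites in the Tfrc 3′ untranslated region and 1 each in the 5′ untranslated regions of Fth1, Ftl1 and Slc40a1. Of 21877 protein-coding genes, searched in their longest coding transcript only, 271 (1.24%) held such a match, and 1 gene, Tfrc, held 3 or more. The sequences run 5′ to 3′ along the mRNA, with the 6-base loop in capitals.
Tfrc site 1, chr16:32631220-32631246, plus strand: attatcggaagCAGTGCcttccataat
Tfrc site 2, chr16:32631599-32631625, plus strand: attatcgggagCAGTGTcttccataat
Tfrc site 3, chr16:32631664-32631690, plus strand: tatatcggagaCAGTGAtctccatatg
Tfrc site 4, chr16:32631711-32631737, plus strand: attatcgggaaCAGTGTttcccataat
Fth1, chr19:9982733-9982759, plus strand: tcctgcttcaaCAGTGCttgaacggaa
Ftl1, chr7:45459780-45459806, minus strand: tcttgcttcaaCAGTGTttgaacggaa
Slc40a1, chr1:45925466-45925492, minus strand: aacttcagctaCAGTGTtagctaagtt
No match was found in the protein-coding transcripts of Hmox1, Ireb2, Aco1, Steap3 or Ncoa4, which says only that these letters are not in those transcripts. A match is a description of sequence, and binding was not measured.

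The table held 24099551 to 30879584 reads per leukaemia library and 24712749 to 32247804 per myeloid library, recovered from the deposited log2-scale values. Levels below are normalised reads (reads divided by the library's size factor), folds are ratios of group means of these, and log2 differences and adjusted p-values come from limma on the deposited values, leukaemia minus myeloid. The table holds genes already selected for a difference: 99.8% of the 8079 tested genes passed an adjusted p of 0.05, 49.1% higher and 50.7% lower in leukaemia, and in 86.8% the 2 groups did not overlap. All 9 iron genes passed, 3 higher and 6 lower (Ftl1 and Ireb2 among the lower turn direction under other scalings), and 8 of the 9 did not overlap between groups, shares that lie near this background. At a log2 difference of at least 1, Tfrc was higher, against 9.52% of all tested genes. At -1 or below, Slc40a1, Fth1 and Hmox1 were lower, against 18.1%. The median log2 difference was -0.39 over the 9 genes and -0.16 over all tested genes. The median of all tested genes moved by 0.25 under quantile normalisation and by 0.59 when libraries were scaled to the table's total reads, so small differences are read beside those scalings.

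The neutrophil markers separated the groups, with all 15 lower in leukaemia and sums of 99800 to 105709 normalised reads in leukaemia libraries against 3236500 to 5081950 in myeloid libraries. Itgam, which encodes CD11b, had 12227 ± 1128 normalised reads in leukaemia and 97794 ± 13873 in the myeloid group. All 13 monocyte markers in the table were lower in leukaemia as well (sums of 48168 to 91549 against 127155 to 250742). The myeloid libraries were not uniform: the 11 marrow macrophage markers in the table summed to 13766 to 16920 in leukaemia libraries, against 56746, 12524, 41581, 16690 and 40099 in myeloid replicates 1 to 5. Spic, a factor of iron-recycling macrophages, was at 0 in myeloid replicates 2 and 4, and C1qa was at 0 in replicate 4. Of the 8 macrophage markers tested, 1 was higher in leukaemia (Vcam1), 5 were lower and 2 did not pass. Csf1r, with means of 7195 in leukaemia and 15990 in the myeloid group, is in both the macrophage and the monocyte list, so these sums are not separate measures. In leukaemia, Csf1r and Vcam1 (mean 4112) made up most of the macrophage sum. Results without myeloid replicates 2 and 4, an alternative chosen after seeing the data, are therefore given beside those of several genes, and beside each named gene whose call was lost. In sorted bulk samples, fewer cells of a type and less RNA per cell cannot be told apart.

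**Figure D1:**
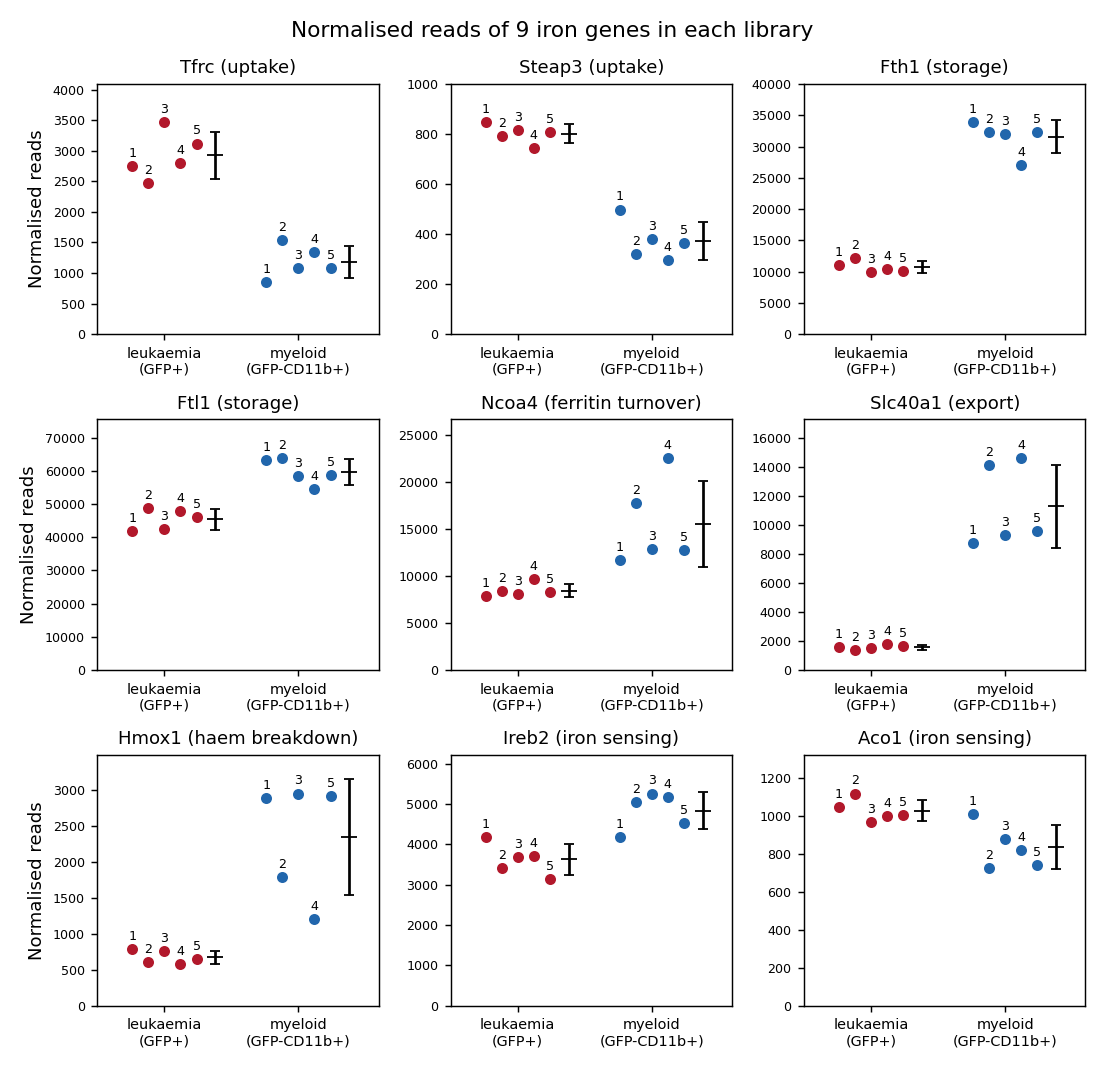
Normalised reads (y axes, each from 0) of the 9 iron genes in each of the 5 leukaemia (red) and 5 myeloid (blue) libraries, numbered by replicate, with black bars for the mean ± SD. Tfrc and Steap3 lie higher in every leukaemia library, Fth1, Slc40a1 and Hmox1 lie lower in every leukaemia library, and Aco1 overlaps; Ftl1 and Ireb2 also lie lower at this scaling but change direction under quantile normalisation and scaling to the total.

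Of the uptake genes, both Tfrc and Steap3 were higher in leukaemia. Tfrc, the transferrin receptor, had 2759, 2468, 3475, 2800 and 3120 normalised reads in leukaemia replicates 1 to 5, against 847, 1538, 1086, 1341 and 1082 in myeloid replicates 1 to 5. Every leukaemia library lay above every myeloid library, and the highest myeloid values were those of replicates 2 and 4. The leukaemia mean was 2924 ± 385 and the myeloid mean 1178 ± 266 (SD, n = 5 each), a 2.48-fold higher level in leukaemia (log2 difference 1.03, SE 0.109, limma adjusted p = 9.74e-07). Without myeloid replicates 2 and 4 the fold was 2.91.

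Steap3, the endosomal ferric reductase, had 848, 791, 815, 745 and 807 normalised reads in leukaemia, against 498, 320, 380, 298 and 364 in myeloid cells. The leukaemia libraries lay close together and above all myeloid libraries. Steap3 was 2.15-fold higher in leukaemia (log2 difference 0.63, SE 0.0671, limma adjusted p = 1.06e-06). Slc11a2, which moves ferrous iron out of the endosome, was 1.43-fold higher (364 ± 44.6 against 255 ± 84.4, limma adjusted p = 0.019), with overlapping groups. Its call was lost under quantile normalisation (log2 difference 0.07, adjusted p = 0.44) and without myeloid replicates 2 and 4 (0.10, adjusted p = 0.155).

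Of 20 genes listed for iron entry and extracellular iron binding, 11 were in the table and 7 were tested. Of these, 4 were higher and 3 lower in leukaemia (all tested genes: 49.1% and 50.7%), with a median log2 difference of 0.25. Slc39a8, a metal importer of the plasma membrane, was 9.57-fold higher (500 ± 51.1 against 52.2 ± 22.7 normalised reads, limma adjusted p = 4.05e-09). Its myeloid level lay under the filter (about 145 normalised reads), so it passed only through leukaemia and its call is partly set by the filter. The 3 lower genes were Ltf and Lcn2, which encode the granule proteins lactoferrin and lipocalin 2 that bind iron or iron-carrying siderophores outside the cell, and Slc11a1, a metal transporter of the phagosome membrane. Ltf was 100-fold, Lcn2 59.8-fold and Slc11a1 15.2-fold lower, and Ltf and Lcn2 are themselves neutrophil markers. Steap4, Slc39a14, Slc46a1 and Slc22a17 lay under the filter and have no test here. Steap4, a metalloreductase, had 2 reads in all in leukaemia, both in replicate 5, against 92.1 to 768 normalised reads in the myeloid libraries. Slc22a17, a receptor for lipocalin 2, had 317 to 389 normalised reads in leukaemia and 0 to 29.3 in myeloid cells. Slc46a1, a folate and haem transporter, had 136 ± 18.0 in leukaemia and 12.1 ± 13.5 in myeloid cells. Slc39a14, a metal importer, had 121 to 185 in leukaemia and 31.5 to 72.1 in myeloid cells.

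Of the storage genes, Fth1 was lower in leukaemia under all 3 scalings, while the direction of Ftl1 depended on the scaling. Fth1, the ferritin heavy chain that oxidises iron for storage, had 11135, 12196, 9972, 10467 and 10086 normalised reads in leukaemia, against 33981, 32310, 32097, 27028 and 32395 in myeloid cells. The groups were far apart, and within each group the libraries differed little except for the lower myeloid replicate 4. Fth1 was 2.93-fold lower in leukaemia (log2 difference -1.50, SE 0.0812, limma adjusted p = 1.52e-09). It remained lower under quantile normalisation (-0.92) and scaling to the total (-0.91). Of its 50-base words, 6.6% also occur in another annotated gene, Gm6977.

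Ftl1, the ferritin light chain, had 41719, 48639, 42306, 47746 and 46194 normalised reads in leukaemia, against 63262, 63933, 58297, 54358 and 58686 in myeloid cells. The groups did not overlap at this scaling, and Ftl1 was 1.32-fold lower in leukaemia (log2 difference -0.39, SE 0.0810, limma adjusted p = 0.000447). Its direction depended on the scaling, at 0.39 under quantile normalisation (adjusted p = 0.00041) and 0.24 when scaled to the total (adjusted p = 0.0125). Its reads are also uncertain, because 78.9% of its 50-base words occur in other annotated genes and 73.4% occur in Ftl1-ps1, and because Gm10252 (opposite strand) and the miRNA gene Gm22133 overlap it. The ratio of Fth1 to Ftl1 within a library does not depend on the library's scaling. Per kilobase of transcript it was 0.228 to 0.278 in leukaemia libraries and 0.518 to 0.575 in myeloid libraries. As counted, the share of the heavy chain mRNA was therefore lower in every leukaemia library, but the ratio carries the uncertainty of the Ftl1 reads.

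Ncoa4, the receptor that takes ferritin to the lysosome, had 7854, 8365, 8072, 9647 and 8328 normalised reads in leukaemia, against 11732, 17746, 12831, 22609 and 12766 in myeloid cells. The leukaemia libraries lay within a narrow band, while myeloid replicates 2 and 4 stood above the other 3 myeloid libraries. Ncoa4 was 1.84-fold lower in leukaemia (log2 difference -0.80, SE 0.152, limma adjusted p = 0.00024), and 1.47-fold lower without myeloid replicates 2 and 4. The call was lost under quantile normalisation (-0.22, adjusted p = 0.0881) and scaling to the total (-0.20, adjusted p = 0.16), and 52.5% of its 50-base words occur in Gm6768.

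Of 10 genes listed for storage and ferritin turnover, 6 were in the table and tested, 3 higher and 3 lower (all tested genes: 49.1% and 50.7%). The median log2 difference of -0.09 turned to 0.56 under both other scalings. The 3 lower genes were Fth1, Ftl1 (at this scaling, as above) and Ncoa4. Pcbp1, a chaperone that delivers iron to ferritin, had 10436 ± 1067 normalised reads in leukaemia and 6747 ± 437 in the myeloid group, 1.55-fold higher (log2 difference 0.59, limma adjusted p = 9.25e-06). Its relative Pcbp3 was 6.47-fold higher (313 ± 17.6 against 48.4 ± 22.1), and passed the filter only through leukaemia. Herc2, part of the ubiquitin ligase that removes Ncoa4, was also higher (4998 ± 298 against 4244 ± 704, limma adjusted p = 0.0312), with overlapping groups. The Herc2 call was lost without leukaemia replicate 1, 3 or 5 or without myeloid replicate 1, 2 or 3 (adjusted p of 0.0521 to 0.0796).

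The iron exporter had the largest log2 difference of the 9 genes under each of the 3 scalings. Slc40a1, which encodes ferroportin, had 1560, 1346, 1532, 1810 and 1643 normalised reads in leukaemia, against 8784, 14139, 9314, 14659 and 9612 in myeloid cells. The highest leukaemia library was far below the lowest myeloid library, and myeloid replicates 2 and 4 were the highest. The leukaemia mean was 1578 ± 169 and the myeloid mean 11301 ± 2849 (SD, n = 5 each), 7.16-fold lower in leukaemia (log2 difference -2.46, SE 0.135, limma adjusted p = 1.81e-09). Without myeloid replicates 2 and 4 it was 5.85-fold lower. Those 2 libraries had the lowest macrophage marker sums and the highest Slc40a1, and the part of macrophages in the group difference was not tested. The ratio of Tfrc to Slc40a1 per kilobase, which the scaling of a library cannot change, was 1.07 to 1.56 in leukaemia and 0.0630 to 0.0803 in myeloid libraries.

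Of 21 genes listed for export and its control, 11 were in the table and 8 were tested. Of these, 1 was higher and 7 lower in leukaemia (all tested genes: 49.1% and 50.7%), with a median log2 difference of -0.90. In the liver, bone morphogenetic protein receptors and Smad proteins control the hormone hepcidin, which removes ferroportin from the cell surface. The receptor genes Bmpr1a and Bmpr2 were 28.2-fold and 4.89-fold lower in leukaemia, and the Smad partner Smad4 was 2.29-fold lower. Bmpr1a averaged 56.3 normalised reads in leukaemia and passed the filter only through the myeloid group. The feedback inhibitor Smad7 was 2.09-fold lower, and the target gene Id1 was 1.67-fold lower with overlapping groups. The Id1 call was lost when libraries were scaled to the total (log2 difference -0.09, adjusted p = 0.554). Smad5, a transducer of this signal, was 2.62-fold higher (2590 ± 250 against 987 ± 61.2 normalised reads, limma adjusted p = 3.16e-09).

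Hfe, a membrane partner of the transferrin receptor that acts upstream of hepcidin, had 319, 284, 269, 235 and 281 normalised reads in leukaemia, against 1771, 279, 1386, 249 and 1292 in myeloid cells. Myeloid replicates 2 and 4 lay within the leukaemia range and the other 3 myeloid libraries far above it. Hfe was 3.59-fold lower in leukaemia over all libraries (log2 difference -0.85, limma adjusted p = 0.014) and 5.34-fold lower without myeloid replicates 2 and 4. The Hfe call was lost when libraries were scaled to the total (-0.71, adjusted p = 0.291) and when every annotated symbol was counted as a test (adjusted p = 0.0958). Under the filter, Acvr1, another receptor of this family, had 27.2 to 50.2 normalised reads in leukaemia and 103 to 195 in myeloid cells. The ferroxidase gene Cp had 45.7 ± 8.46 in leukaemia and 82.1 ± 25.7 in myeloid cells. Erfe, which encodes erythroferrone, had 54.1 to 74.2 in leukaemia and 0 to 17.7 in myeloid cells.

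Hmox1, the haem oxygenase that opens the haem ring and frees its iron, was lower in leukaemia. It had 785, 605, 761, 576 and 645 normalised reads in leukaemia, against 2892, 1795, 2956, 1203 and 2921 in myeloid cells. All leukaemia libraries lay below all myeloid libraries, and myeloid replicates 2 and 4 were the lowest of their group, the opposite of their place for Slc40a1. Hmox1 was 3.49-fold lower in leukaemia (log2 difference -1.24, SE 0.174, limma adjusted p = 1.5e-05). Without myeloid replicates 2 and 4 it was 4.33-fold lower. Macrophage markers were low in the same 2 myeloid libraries, and their part in the difference was not tested.

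Of 12 genes listed for haem breakdown and haem transport, 7 were in the table and tested. Of these, 3 were higher and 4 lower (all tested genes: 49.1% and 50.7%), with a median log2 difference of -0.23. Flvcr1, described as a haem exporter, had 505 ± 90.3 normalised reads in leukaemia and 2760 ± 159 in the myeloid group, 5.46-fold lower (log2 difference -1.73, limma adjusted p = 1.05e-10). Por, the reductase that supplies electrons to haem oxygenase, was 4.34-fold lower, and the second haem oxygenase gene Hmox2 was 1.22-fold lower with overlapping groups. The direction of Hmox2 turned under quantile normalisation (log2 difference 0.02, adjusted p = 0.771) and scaling to the total (0.35, adjusted p = 0.00334), and the median of this list with it. Slc48a1, which moves haem out of lysosomes, was 1.64-fold higher, the porphyrin exporter Abcg2 2.10-fold higher and the haem chaperone Pgrmc2 1.70-fold higher.

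Of the iron sensor genes, Ireb2 had a log2 difference of -0.37, which turned direction under other scalings, and Aco1 one of 0.20, which was 0.95 when libraries were scaled to the total. Ireb2, which encodes the iron regulatory protein that is degraded when iron is plentiful, had 4179, 3424, 3689, 3708 and 3145 normalised reads in leukaemia, against 4188, 5048, 5260, 5162 and 4519 in myeloid cells. The groups barely separated, with the highest leukaemia library next to the lowest myeloid library. Ireb2 was 1.33-fold lower in leukaemia (log2 difference -0.37, SE 0.0793, limma adjusted p = 0.000658). Its direction turned to 0.13 under quantile normalisation (adjusted p = 0.106) and to 0.22 when scaled to the total (adjusted p = 0.0222).

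Aco1, whose protein is cytosolic aconitase when it holds an iron-sulphur cluster and an iron regulatory protein when it does not, had 1049, 1121, 971, 1004 and 1008 normalised reads in leukaemia, against 1013, 729, 883, 823 and 743 in myeloid cells. The groups overlapped through myeloid replicate 1. Aco1 was 1.23-fold higher in leukaemia (log2 difference 0.20, SE 0.0637, limma adjusted p = 0.0082). The log2 difference was 0.19 under quantile normalisation (adjusted p = 0.0122) and 0.95 when scaled to the total (adjusted p = 3.38e-06). The call was lost when every one of 55341 annotated symbols was counted as a test (adjusted p = 0.0562).

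Of 10 genes listed for iron sensing, 8 were in the table and tested, 3 higher and 5 lower (all tested genes: 49.1% and 50.7%). The median log2 difference of -0.32 turned to 0.16 under quantile normalisation and 0.28 when scaled to the total. Hif1a, a hypoxia factor, had a log2 difference of -0.27 that likewise turned, to 0.21 and 0.33. Fbxl5, the iron-binding subunit of the ubiquitin ligase that removes Ireb2, had 1568 ± 111 normalised reads in leukaemia and 12150 ± 3371 in the myeloid group, 7.75-fold lower (log2 difference -2.55, limma adjusted p = 6.36e-09). Its ligase partners Skp1a and Cul1 were 1.79-fold and 1.24-fold higher. Nfe2l2, a factor that induces Hmox1 and ferritin genes, was 3.92-fold lower, and Bach1, the haem-sensing repressor of the same genes, was 3.36-fold lower.

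Cdc14a, a phosphatase gene listed apart from the sensors, among mRNAs described with an iron-responsive element, had no match to the hairpin search in its annotated protein-coding transcripts. Cdc14a had 924 ± 42.4 normalised reads in leukaemia and 3219 ± 364 in the myeloid group, 3.49-fold lower (limma adjusted p = 7.64e-10).

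**Figure D2:**
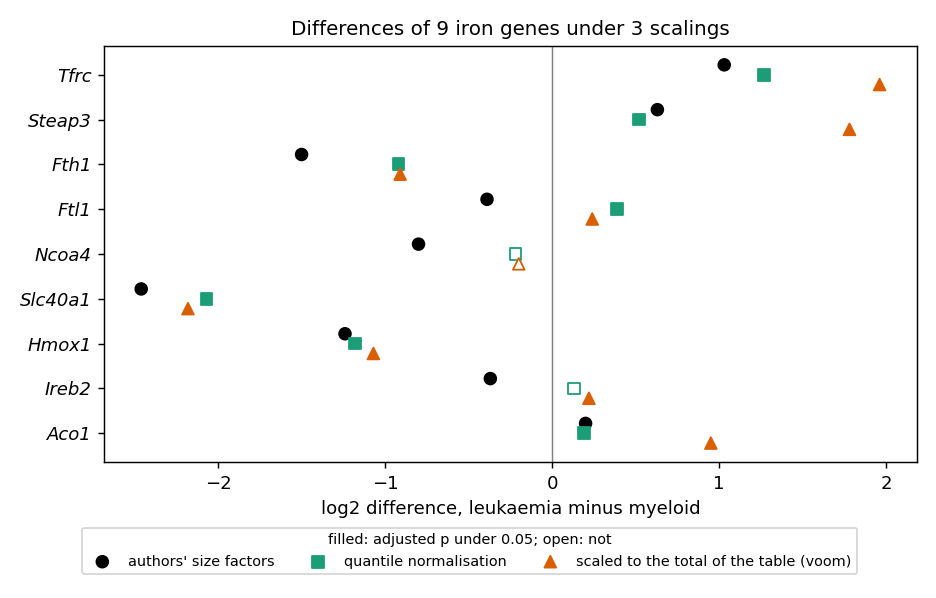
Log2 difference, leukaemia minus myeloid (x axis), of the 9 iron genes under the authors' size factors (circles), quantile normalisation (squares) and scaling to the total of the table (triangles); filled symbols passed an adjusted p of 0.05 and open ones did not. Tfrc, Steap3 and Aco1 stay right of 0 and Fth1, Slc40a1 and Hmox1 left of it under all 3 scalings, Ncoa4 stays left but loses its call, and Ftl1 and Ireb2 change sides.

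At this scaling, the genes listed for the use of iron inside the cell were mostly higher in leukaemia. Of 20 genes listed for haem synthesis and mitochondrial iron import, 16 were tested. Of these, 12 were higher and 4 lower (all tested genes: 49.1% and 50.7%), with a median log2 difference of 0.37. When libraries were scaled to the total, 12 were higher and 2 lower, beside 67.4% of all calls higher. Quantile normalisation gave 11 higher and 3 lower (53.4% of all calls higher). A stricter filter (over 2 units above the lowest value) left 11 tested, 7 higher and 4 lower (41.6% of all calls higher). Alas1, the first enzyme of haem synthesis, was 1.97-fold higher (12588 ± 1722 against 6402 ± 1215 normalised reads, limma adjusted p = 1.36e-05). Fech, which inserts iron into the ring, was 2.16-fold higher, and Cox10, which makes the haem of cytochrome oxidase, 2.41-fold higher. The 4 lower genes were Ppox, an enzyme late in the pathway (2.55-fold), the mitochondrial iron importers Slc25a28 (1.91-fold) and Slc25a37 (1.33-fold), and the glycine importer Slc25a38 (1.83-fold). The Slc25a38 call was lost when libraries were scaled to the total (log2 difference -0.20, adjusted p = 0.217). The groups overlapped for Slc25a37, and its direction turned, with no call, under quantile normalisation (0.16, adjusted p = 0.123) and scaling to the total (0.22, adjusted p = 0.0518).

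Of 32 genes listed for iron-sulphur cluster assembly, 22 were tested. Of these, 19 were higher and 3 lower (all tested genes: 49.1% and 50.7%), with a median log2 difference of 0.59. Scaling to the total gave 20 higher and 2 lower, beside 67.4% of all calls higher. Quantile normalisation gave 17 higher and 3 lower (53.4% of all calls higher). The stricter filter left 11 tested, 8 higher and 3 lower (41.6% of all calls higher). Hspa9, the mitochondrial chaperone that helps pass clusters on, had 6976 ± 157 normalised reads in leukaemia and 1964 ± 124 in the myeloid group, 3.55-fold higher (log2 difference 1.59, limma adjusted p = 2.03e-11). The ferredoxin gene Fdx1 was 9.20-fold higher (616 ± 148 against 67.0 ± 21.4 normalised reads) and passed the filter only through leukaemia. The cytosolic glutaredoxin gene Glrx3 was 2.22-fold higher. The scaffold gene Iscu was 1.97-fold lower and the cluster carrier gene Nfu1 1.72-fold lower. Narfl, of the cytosolic assembly machinery, was 1.16-fold lower at this scaling (log2 difference -0.14, adjusted p = 0.0363), but 0.43 when scaled to the total. The Narfl call was also lost without any 1 of 8 libraries (adjusted p of 0.0517 to 0.0862 without leukaemia replicate 1, 2, 3 or 4 or myeloid replicate 1, 2, 4 or 5), and without both myeloid replicates 2 and 4 (-0.08, adjusted p = 0.215). Under the filter, Fdx1l had 12.4 to 202 normalised reads in leukaemia and 2.36 to 25.6 in myeloid cells, and Nubpl had 135 to 166 and 25.2 to 53.6. Merged over all lists and without the 9 genes, 67 iron genes were tested, 43 higher and 24 lower at the authors' scaling (all tested genes: 49.1% and 50.7%). Their median log2 difference was 0.36, beside -0.16 for all tested genes.

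**Figure D3:**
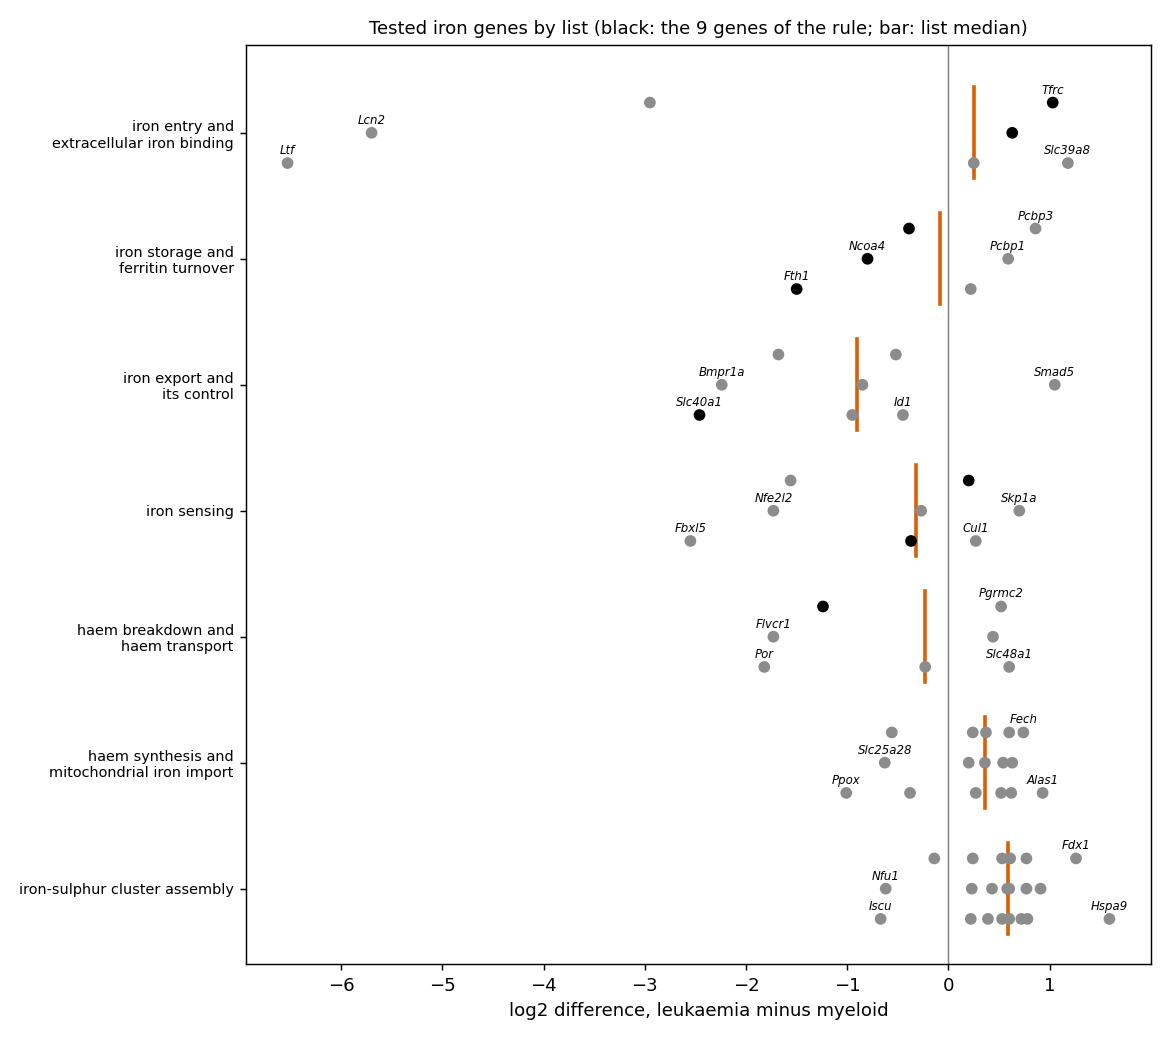
Log2 difference, leukaemia minus myeloid (x axis), of every tested gene in 7 iron lists (rows); black points are the 9 iron genes, grey points the other list members and orange bars the list medians. The medians run from -0.90 for export and its control to 0.59 for iron-sulphur cluster assembly, and Ftl1, Ireb2, Hif1a, Hmox2, Slc25a37 and Narfl, all left of 0 here, turn positive under quantile normalisation, scaling to the total or both.

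Levels were divided by transcript length to set genes beside each other, which does not correct for sequence shared with other genes. The share of 50-base words found in other genes was 78.9% for Ftl1, 52.5% for Ncoa4 and 6.6% for Fth1, so the levels of Ftl1 and Ncoa4 are uncertain. In leukaemia, normalised reads per kilobase were 46819 ± 3255 for Ftl1, 11594 ± 987 for Fth1 and 2529 ± 209 for Ncoa4. Ireb2 (629 ± 66.5), Tfrc (598 ± 78.7), Slc40a1 (468 ± 50.2) and Hmox1 (430 ± 59.7) followed, and each overlapped the next in range. Steap3 (273 ± 12.8) and Aco1 (269 ± 15.0) were the lowest and overlapped each other.

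In myeloid cells Ftl1 (61681 ± 4072), Fth1 (33974 ± 2845) and Ncoa4 (4648 ± 1374) were again the highest. Slc40a1 (3354 ± 845) came next and overlapped Ncoa4 in range, then Hmox1 (1500 ± 515) and Ireb2 (838 ± 79.9), which overlapped each other. Tfrc (241 ± 54.5) overlapped Aco1 (219 ± 30.3) in range, and Steap3 was the lowest (127 ± 26.5). Slc40a1 therefore stood below Tfrc in leukaemia and above it in myeloid cells. The lengths are those of 1 transcript per gene, so these levels carry any difference in the transcripts used.

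**Figure D4:**
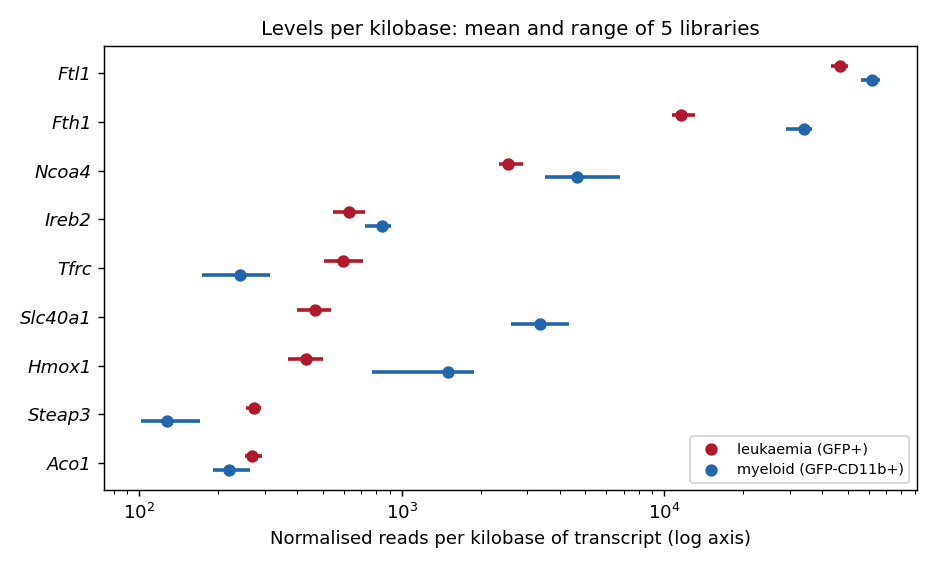
Normalised reads per kilobase of transcript (log x axis) of the 9 iron genes, ordered by their leukaemia level; points are means and lines the range of 5 libraries, leukaemia in red above myeloid in blue. The ferritin genes have the highest levels in both groups, though Ftl1 reads are uncertain through shared sequence, and Slc40a1 lies at 468 in leukaemia and 3354 in myeloid cells.

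Within groups, the iron genes did not vary together in 1 direction. After subtracting each group's mean over the 10 libraries, Slc40a1 and Ncoa4 had a Pearson r of 0.93 and Tfrc and Slc40a1 one of 0.77. Hmox1 ran the other way, at -0.98 with Ncoa4 and -0.88 with Slc40a1. These are descriptions over libraries that share 2 groups and a common scaling, and they rest largely on myeloid replicates 2 and 4. In those 2 libraries Slc40a1, Ncoa4 and Tfrc were the highest of the myeloid group and Hmox1, Steap3 and Hfe the lowest. The neutrophil marker sums were also highest there (5081950 and 4302680), the monocyte sums lowest (127155 and 167403), and the macrophage genes Apoe (823 and 2624, against 12645 to 20278 in the other 3) and Axl (56.7 and 97.1, against 917 to 1454) far lower. The part of these cell types in the spread of the iron genes was not tested.

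**Figure D5:**
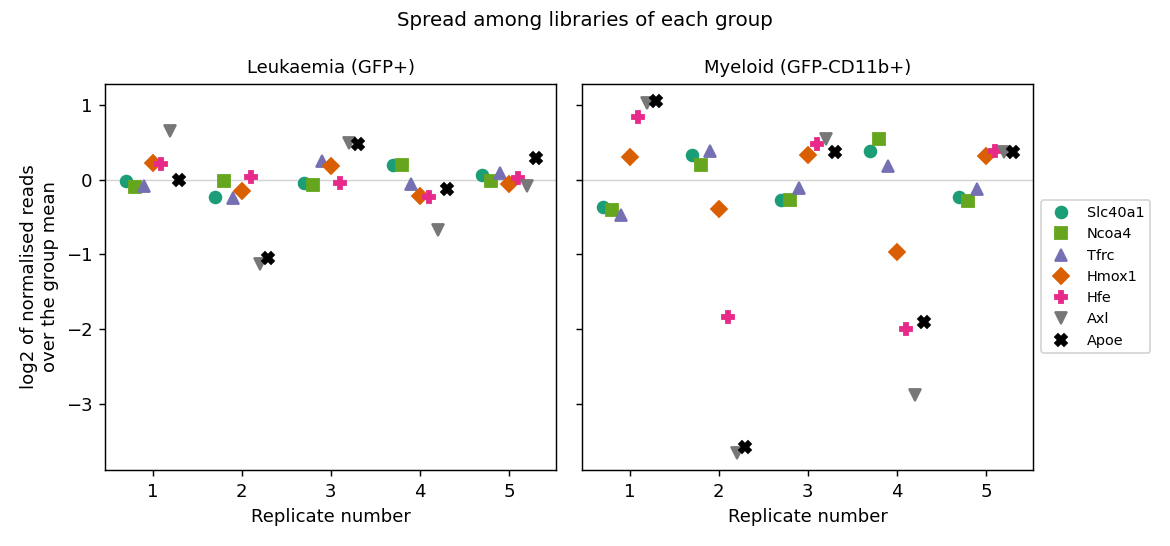
Log2 of normalised reads over the group mean (y axis) for 5 iron genes and the macrophage genes Axl and Apoe, by replicate number in leukaemia (left) and myeloid (right) libraries. In myeloid replicates 2 and 4, Slc40a1, Ncoa4 and Tfrc lie above 0 while Hmox1, Hfe, Axl and Apoe lie below it.

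The genes whose deviations from the group means were most like those of Tfrc over the 10 libraries were Plcb4 (Pearson r = 0.952), Il18rap and Aatk (each 0.939), Cxcr2 (0.936) and A130010J15Rik (0.935). Of these, Cxcr2, a chemokine receptor of neutrophils, was 134-fold lower in leukaemia, the opposite of the group difference of Tfrc. Il18rap (log2 difference -2.54) and Aatk (-1.13) were also lower, while Plcb4 (0.26) and A130010J15Rik (0.20) were higher. The genes most like Slc40a1 were Trp53inp2 and Slc27a4 (each 0.980), Maea (0.975), Padi4 (0.972) and Pygl (0.970), all 5 lower in leukaemia with log2 differences of -0.90 to -3.63. In leukaemia, Slc40a1 ranged from 1346 to 1810 and Padi4, a neutrophil enzyme that modifies histones, from 4357 to 4837 normalised reads. The erythroid markers were low: the 7 in the table summed to 110 to 172 normalised reads in leukaemia and 245 to 904 in myeloid libraries, and none passed the filter. Lymphoid marker sums were 3492 to 6344 in leukaemia and 2927 to 7069 in myeloid cells, but the genes in them differed. Of the 14 in the table, 4 were tested and 2 of these were higher in leukaemia, Nkg7 (mean 4331 against 1004) and Cd79b (464 against 312). Jchain (11.5 against 1052) and Klrb1c (20.6 against 542) were lower. The rest lay under the filter, each with a lower mean in leukaemia, as for Ncr1 (0.928 against 450). Nkg7 thus made up most of the leukaemia sums. Of 10 listed megakaryocyte and platelet markers, 3 were in the table, with sums of 1569 to 1925 in leukaemia and 2887 to 5274 in myeloid cells. Most of each sum was Itgb3 (1670 ± 136 against 3566 ± 911), and the others lay under the filter, so the sums describe mainly 1 gene.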

How the data were processed

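The values deposited by the authors are log2-scale expression for 10141 genes in 10 libraries, normalised and variance-stabilised as the name of the deposited table says. The submitters' processing notes name HISAT2 (2.0.4 and 2.2.1) and DESeq2. Build, annotation, counter and strand setting are not given in the sources used here, and overlapping genes cannot be separated by strand. All libraries share a lowest value of 8.1823, taken as 0 reads. The stabilising function was inverted, and 100% of values under 300 reads fell within 0.1 of a whole read. Values of 4, 6, 8 or 10 reads (1466) outnumbered 3, 5, 7 or 9 (1123), so a read may be part of a counted pair.

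The deposited values were fitted with limma 3.58.1 (R 4.3.3; trended prior, two-sided, Benjamini-Hochberg at 0.05) on genes averaging over 1 unit above the lowest value (about 145 normalised reads). The fit was tested on simulated data. On this scale, log2 differences of weakly expressed genes come out too small. The table holds selected genes, so adjusted p-values are not error rates over the transcriptome. Alternatives changed the scaling, filter, prior, replicate block, number of tests and libraries. The genes, lists and tests were chosen with earlier results of these data known. Named genes were the 9 iron genes, and up to 3 highest and 3 lowest passing members of each list with every untested member. The 5 genes most like Tfrc and Slc40a1 were also named. Smad4, Hfe, Hif1a, Hmox2, Slc25a37, Vcam1, Csf1r, Itgam, Apoe, Axl, Nkg7, Cd79b, Klrb1c, Ncr1, Jchain and Itgb3 were added after their values were seen. Hairpins, lengths, overlaps and 50-base words shared between genes came from GENCODE M21 (GRCm38). 1 gene of the lists is not reported here.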

Additional observations from a re-analysis of the deposited data

Results flagged for a closer look

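The check covered 55 genes: the 9 iron genes and the members of the lists picked as highest, lowest or not tested. For each, the 5 libraries of a group were checked for 1 library standing apart, by Dixon's test with a critical value of 0.71. Of 110 groups of 5, 10 had such a library, where chance flags about 1 in 20 groups. Among the 9 iron genes this was Fth1 in myeloid replicate 4, at 27028 normalised reads against 32097 to 33981 in the other 4. The same library was highest for Nfe2l2 (8837 against 7789 to 7915) and Flvcr1 (3036 against 2638 to 2733), and lowest for Cox10 (174 against 250.0 to 276). Leukaemia replicate 1 was lowest for Slc39a8 (412 against 507 to 546) and Slc11a2 (288 against 369 to 398), and highest for Acvr1 (50.2 against 27.2 to 31.5). Steap4 was at 1.86 in leukaemia replicate 5 and at 0 in the other 4, Glrx3 was highest in leukaemia replicate 4 (3247 against 2766 to 2895), and Cdc14a was lowest in myeloid replicate 1 (2588 against 3227 to 3457).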

How the results depend on the processing

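Leaving out any 1 library kept the direction and call of all 9 iron genes, with adjusted p-values of at most 0.0237 (Aco1). Quantile normalisation gave log2 differences of 0.39 for Ftl1 and 0.13 for Ireb2, which turned their direction, and -0.22 for Ncoa4, which lost its call. Scaling to the total of the table gave 0.24 for Ftl1 and 0.22 for Ireb2, again turned, and -0.20 for Ncoa4, not called. Counting every annotated symbol as a test left Aco1 at 0.20 and not called. The total scaling raised the share of calls that were higher to 67.4% from 49.2%, with 2232 genes lower in place of 4097; the stricter filter, which tests fewer genes, left 2415 higher in place of 3965. In the lists, omitting the filter gave 7 higher for iron entry and 2 for export. The stricter filter gave 1 higher for entry, 7 for haem synthesis and 8 for iron-sulphur assembly, and 4 lower for export. Both the quantile and total scalings gave 1 lower for storage and 3 for sensing, and the total scaling gave 5 higher for sensing and 2 lower for haem synthesis. The cause of the scaling changes was not tested. With the replicate number as a block (replicate block), Tfrc stayed at 1.03 (adjusted p = 1.17e-05), Slc40a1 at -2.46 (4.75e-08) and Aco1 at 0.20 (0.0136), and no iron gene changed its call. Both groups use the same replicate numbers, and the sources do not say whether a shared number marks the same mouse. Same-numbered libraries correlated at -0.022 to 0.316 in their deviations, and 2 of 5 numbers correlated best with themselves. With so few libraries this cannot settle pairing, so the main fit took no pairs and the block is given beside it. Depth did not limit the 9 genes, all with at least 1513 reads per group, but the genes under the filter have no test.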
